A study of Mus musculus with 4 samples.

Results

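The genes described here are 10 members of the antioxidant response governed by the transcription factor NRF2, measured in basal cells sorted from mouse tail epidermis. They are Nfe2l2, which encodes NRF2, its partner and inhibitor Keap1, and the response genes Nqo1, Hmox1, Gclc, Gclm, Txnrd1, Srxn1, Prdx1 and Gsr. They were chosen by name from 18193 genes with a probe set of their own, and every probe set whose platform symbol was a member was taken. That gave 24 of 45037 probe sets. Of these, 19 carried the symbol of 1 gene and covered 9 of the 10 genes. The other 5 were assigned jointly to Prdx1 and the pseudogene Gm21399, so no value could be given to Prdx1 alone. A probe set is a group of short oligonucleotides on the Affymetrix array that reads 1 transcript region.

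Expression was compared between InvCREER/RosaYFP and K14CREER/RosaYFP mice of the CD-1 background, with 2 arrays per line. In both lines a tamoxifen-inducible Cre recombinase (CREER) switches on a YFP reporter at the Rosa locus. The Cre is driven by the involucrin promoter in InvCREER mice, which received 10 ug of tamoxifen. It is driven by the keratin 14 promoter in K14CREER mice, which received 1 ug, and the effect of the dose cannot be told apart from that of the line. The titles give 3.5 days after induction and the treatment protocol gives 4. Living YFP-positive cells with high alpha6 integrin and no surface CD34 were sorted. The labels give neither the age of the mice nor whether each array was made from a different animal. The p-values therefore rest on a spread that may be technical. Values are log2 expression after RMA, the authors' normalization and probe set summary. On this scale a difference of 1 is a doubling, and values of different probe sets cannot be ranked against each other.

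NRF2 is held at a low level in resting cells because KEAP1 binds it and presents it for ubiquitination. Oxidants and electrophiles modify cysteines of KEAP1, NRF2 accumulates, and together with small MAF proteins it binds antioxidant response elements near its target genes. The targets supply glutathione, keep thioredoxin and peroxiredoxins reduced, and detoxify quinones and heme. In epidermis the pathway is known for protection from ultraviolet light and chemical stress, and its forced activation in mouse keratinocytes is known to disturb the cornified layer and the sebaceous glands. Much of the control of NRF2 acts on the protein, which these arrays do not measure.

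The antioxidant response element has the core TGACNNNGC, and sites bound by NRF2 with small MAF proteins often read TGANTCAGC. Both patterns were searched on both strands in windows of 300 bases around gene starts (RefSeq, GRCm38.p6). The patterns overlap where the fourth base of the second is C. Windows were matched for 7 member genes, 9 windows in all because Txnrd1 has 3. Hmox1, Gclc and Gsr had no matched window and were not searched. At least 1 match was found in 5 of the 9 windows, those of 5 genes, against 13.0% of all 32851 windows. TGACNNNGC alone was in 12.4% of all windows and TGANTCAGC in 1.19%. The matches are shown because they mark which members carry the letters of the element close to their start, with the match in capitals and 10 bases on either side, each read 5′ to 3′ on the strand that holds it.
Nfe2l2, chr2:75704885-75704913, minus strand: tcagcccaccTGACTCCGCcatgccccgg
Srxn1, chr2:152105469-152105497, plus strand: aaattcacccTGAGTCAGCggccgggcgc
Srxn1, chr2:152105542-152105570, minus strand: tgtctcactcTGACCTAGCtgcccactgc
Gclm, chr3:122245413-122245441, minus strand: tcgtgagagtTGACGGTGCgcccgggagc
Prdx1, chr4:116685456-116685484, minus strand: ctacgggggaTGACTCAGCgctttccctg
Txnrd1, chr10:82859104-82859132, minus strand: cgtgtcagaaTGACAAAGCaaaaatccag
The Prdx1 match fits both patterns, and the first Srxn1 match, 45 bases before the start of the gene, fits TGANTCAGC. The windows of Nqo1 and Keap1 held neither pattern, and bases outside the windows were not searched. A match is a string of letters and not a bound site, and binding was not measured in these samples.

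None of the 9 genes with a probe set of their own passed the test, nor did the 5 probe sets shared by Prdx1 and Gm21399. Of the 9 genes 5 overlapped between the lines, against 6161 of all 11270 tested genes. The glutathione reductase gene Gsr had the largest difference and had lower values on both InvCREER arrays on each of its probe sets, with K14CREER means 2.01-fold and 2.42-fold higher. The quinone reductase gene Nqo1 and the inhibitor Keap1 also had lower values on both InvCREER arrays. The log2 differences were -0.75 for Nqo1, and -0.29 and -0.51 for the probe sets of Keap1. The glutathione synthesis genes Gclc and Gclm, the thioredoxin reductase gene Txnrd1 and Nfe2l2 itself overlapped between the lines. Hmox1 and 4 of the 5 probe sets shared by Prdx1 and Gm21399 had higher values on both InvCREER arrays, by 0.34 and by 0.09 to 0.28.

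limma's moderated test called 0 of the 17 member probe sets that had 1 symbol and passed the filter on dim probe sets, against 0.959% of the 22519 tested probe sets over the whole array (adjusted p under 0.05). At an unadjusted p under 0.05 there were 3 of 17, all lower in InvCREER, 2 of Gsr and 1 of Nqo1, against 13.9% of all tested probe sets in either direction and 7.35% in the lower one. In 6 of 17 the lines did not overlap, against 42.0% of all, which is no larger a share than the background. Of those 6, 5 were lower and 1 was higher, against 22.1% lower and 20.0% higher of all. Means were lower in InvCREER for 13 of the 17, against 50.9% of all. The 5 probe sets shared by Prdx1 and Gm21399 are not among the 17, and all 5 had higher means. Probe sets of the same gene are not separate evidence. Taken with the highest-mean probe set of each gene, 7 of the 9 genes had lower means, against 5842 of the 11270 tested genes. The median difference of the 9 genes was -0.26, against -0.01 over all tested genes. Without InvCREER 2 the members' median was -0.043, without K14CREER 1 it was -0.11, and with the mean of a gene's probe sets it was -0.17. The 2 probe sets under the filter were both of Txnrd1. Bulk RNA from sorted cells does not tell fewer cells of a type from less RNA per cell.

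**Figure D1:**
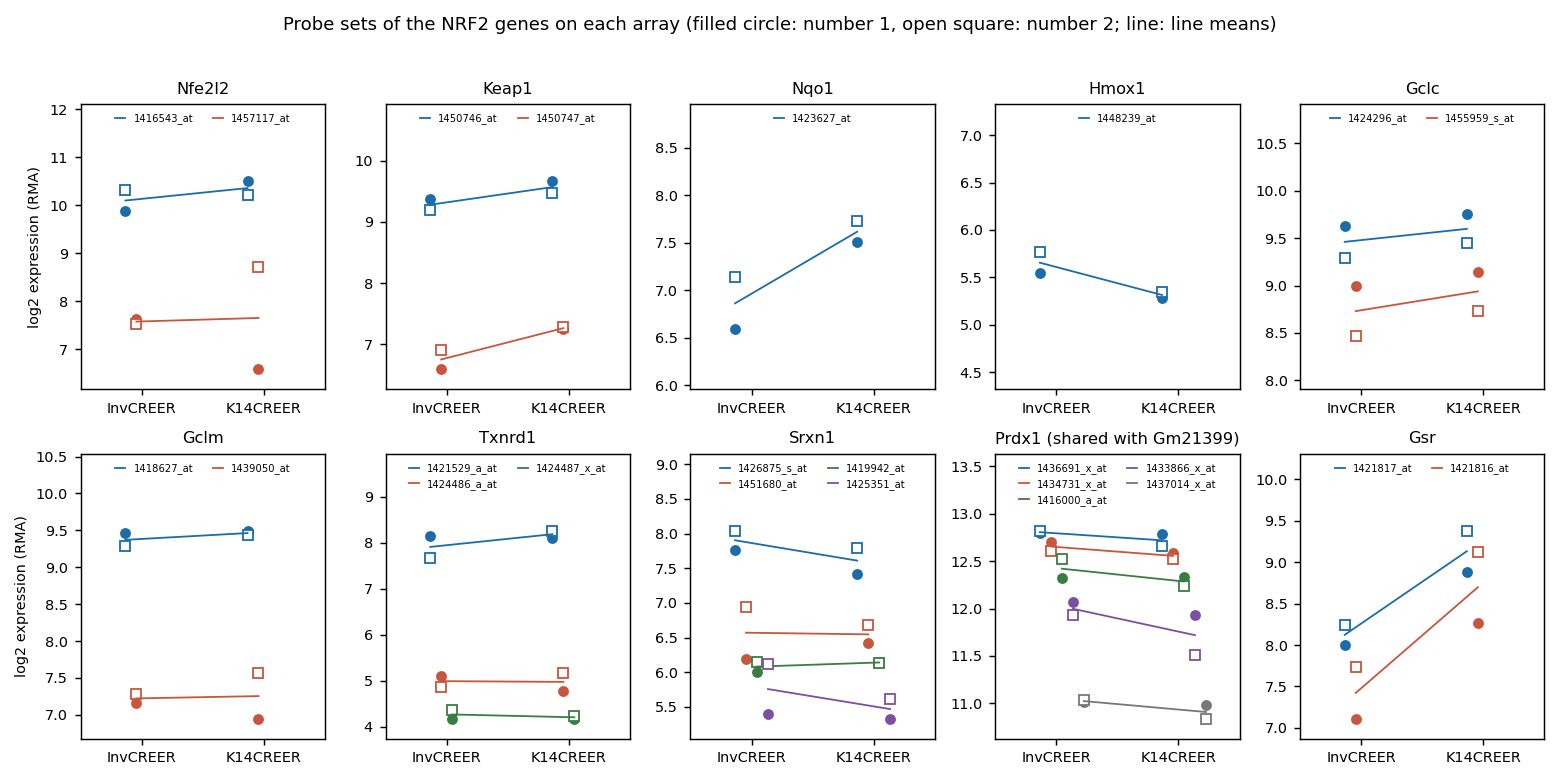
Log2 expression (vertical axis, RMA; the range differs between panels) of every probe set of the 10 genes on each array, InvCREER left and K14CREER right. Filled circles are number 1, open squares number 2, and lines join the means of the lines; Gsr, Nqo1 and Keap1 lie lower on both InvCREER arrays, while Gclc, Gclm, Srxn1 and Nfe2l2 overlap.

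The regulators were read first. Nfe2l2 was at 9.88 and 10.31 in InvCREER, against 10.50 and 10.21 in K14CREER, on probe set 1416543_at. The values overlapped, with InvCREER 1 the lowest and K14CREER 1 the highest. The difference was -0.26 (SE 0.22, 95% interval -0.78 to 0.26, limma adjusted p = 0.723). It was -0.047 without InvCREER 1 and -0.47 without InvCREER 2. A second probe set of the gene, 1457117_at, was at 7.63 and 7.52 in InvCREER, against 6.58 and 8.72 in K14CREER. Here the K14CREER arrays lay on either side of both InvCREER arrays and 2.14 apart. Its difference of -0.08 (limma adjusted p = 0.985) was -1.15 without K14CREER 1 and 0.99 without K14CREER 2, so that this probe set gave no stable direction.

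Keap1, the adaptor that hands NRF2 to a ubiquitin ligase, was at 9.37 and 9.19 in InvCREER, against 9.67 and 9.47 in K14CREER, on probe set 1450746_at. The dimmer 1450747_at was at 6.59 and 6.91 in InvCREER, against 7.25 and 7.28 in K14CREER. Both probe sets placed both InvCREER arrays under both K14CREER arrays. The differences were -0.29 (SE 0.20, limma adjusted p = 0.638) and -0.51 (SE 0.24, limma adjusted p = 0.427), and neither passed the test. The 95% intervals ran from -0.77 to 0.19 and from -1.09 to 0.07.

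Among the detoxifying enzymes, Nqo1 encodes a quinone reductase that is widely used as a readout of NRF2 activity. It was at 6.59 and 7.13 in InvCREER, against 7.50 and 7.73 in K14CREER. The lines did not overlap, and InvCREER 1 was the lowest array. The difference was -0.75 (SE 0.28, 95% interval -1.42 to -0.09, limma adjusted p = 0.292), a level 1.69-fold higher in K14CREER. Without InvCREER 1 it was -0.48, and without InvCREER 2 it was -1.03, so that its size rested on which InvCREER array was read.

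Hmox1, which encodes the inducible heme oxygenase, was at 5.54 and 5.77 in InvCREER, against 5.28 and 5.35 in K14CREER. Both InvCREER arrays were the higher, but all values lay near the filter of 5.42, where background limits what can be read. The K14CREER mean of 5.31 was under that filter. The difference was 0.34 (SE 0.22, 95% interval -0.18 to 0.87, limma adjusted p = 0.600).

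Glutathione is made in 2 steps, and the first is done by the enzyme of a catalytic subunit, GCLC, and a modifier subunit, GCLM. Gclc was at 9.63 and 9.29 in InvCREER, against 9.75 and 9.45 in K14CREER, on 1424296_at. Its other probe set, 1455959_s_at, was at 8.99 and 8.47 in InvCREER, against 9.15 and 8.73 in K14CREER. On both probe sets the 4 arrays took the same order, with number 1 above number 2 in each line. The differences between the lines were -0.14 (SE 0.22, limma adjusted p = 0.885) and -0.21 (SE 0.27, limma adjusted p = 0.852). Number 1 minus number 2 was larger than either, at 0.34 in InvCREER and 0.30 in K14CREER on the first probe set, and 0.52 and 0.41 on the second.

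Gclm was at 9.46 and 9.28 in InvCREER, against 9.49 and 9.43 in K14CREER, on 1418627_at. These values lay close together, with a difference of -0.09 (SE 0.19, limma adjusted p = 0.921). The 95% interval, -0.55 to 0.37, corresponds to 0.682-fold to 1.29-fold. On 1439050_at Gclm was at 7.16 and 7.28 in InvCREER, against 6.94 and 7.56 in K14CREER. There the K14CREER arrays enclosed the InvCREER arrays and the difference was -0.03.

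Gsr encodes glutathione reductase, which regenerates glutathione from its oxidised form with NADPH. Probe set 1421817_at was at 8.003 and 8.24 in InvCREER, against 8.89 and 9.38 in K14CREER. Probe set 1421816_at was at 7.11 and 7.73 in InvCREER, against 8.27 and 9.13 in K14CREER. Both read the gene lower on both InvCREER arrays, and in each line number 2 was above number 1. The differences were -1.01 (SE 0.25, 95% interval -1.62 to -0.39, limma adjusted p = 0.137) and -1.28 (SE 0.37, 95% interval -2.17 to -0.39, limma adjusted p = 0.182). The difference of the second probe set ran from -1.71 to -0.85 with arrays left out. The annotation gives both probe sets the same source sequence, so that they are not separate evidence.

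Txnrd1 and Srxn1, of the thioredoxin branch, overlapped between the lines. Txnrd1, the cytosolic thioredoxin reductase, was at 8.14 and 7.67 in InvCREER, against 8.11 and 8.26 in K14CREER, on 1421529_a_at. InvCREER 2 was the lowest array, and the difference was -0.28 (SE 0.25, limma adjusted p = 0.758). Without InvCREER 1 the difference was -0.51 and without InvCREER 2 it was -0.04. Its other probe sets, 1424486_a_at and 1424487_x_at, ran from 4.17 to 5.17 over all arrays. They lay under the filter and were not tested.

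Srxn1 encodes sulfiredoxin, which repairs overoxidised peroxiredoxins, and its 4 probe sets did not share a direction. The brightest, 1426875_s_at, was at 7.77 and 8.04 in InvCREER, against 7.42 and 7.80 in K14CREER. The lines overlapped, with number 2 above number 1 in each, and the difference was 0.29 (SE 0.25, limma adjusted p = 0.736). The 3 others differed by 0.29, 0.02 and -0.06, with limma adjusted p of 0.797, 0.991 and 0.961. On 1451680_at InvCREER 1 was the lowest array at 6.20 and InvCREER 2 the highest at 6.94, around K14CREER values of 6.42 and 6.67.

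Prdx1 encodes an abundant peroxiredoxin that reduces hydrogen peroxide. Its 5 shared probe sets could also read Gm21399. The one with the largest difference, 1433866_x_at, was at 12.07 and 11.93 in InvCREER, against 11.93 and 11.51 in K14CREER. The lowest InvCREER value and the highest K14CREER value nearly met. All 5 had higher means in InvCREER, with differences of 0.09 to 0.28. In 4 the lines did not overlap, against 42.0% of all tested probe sets, 20.0% with InvCREER higher. The 5 carry the same symbols and are not separate evidence. limma called 0 of the 5 (adjusted p of 0.566 to 0.841), and 0 had an unadjusted p under 0.05.

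**Figure D2:**
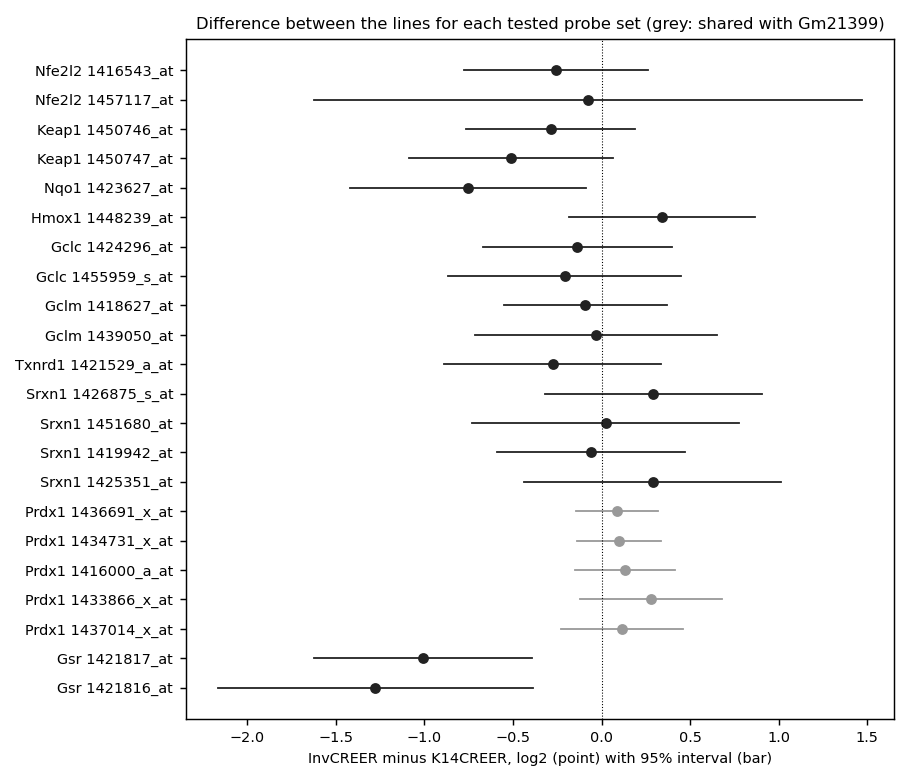
Difference between the lines in log2 units (horizontal axis, InvCREER minus K14CREER) for the 22 tested probe sets, with bars for the 95% interval of limma's moderated test and grey for probe sets shared with Gm21399. The intervals of both Gsr probe sets and of Nqo1 lie under 0 before adjustment, those of the other 19 include 0, and the bar of 1457117_at for Nfe2l2 is the longest.

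The pathway around these genes was read from 10 lists, with each gene represented by its tested probe set of highest mean. Listed genes with no tested probe set of their own are not counted, among them G6pdx, Slc7a11, Ftl1, Prdx5 and Prdx6. Over all 11270 tested genes 1.33% were called, 16.1% had an unadjusted p under 0.05, and 45.3% did not overlap between the lines, 24.1% with InvCREER lower. Of 22 other regulators of NRF2, 12 had higher and 10 lower means, limma called 0, and 2 had an unadjusted p under 0.05. The median difference was 0.03. The 2 that differed most without overlap were Nfe2l1, a related factor, at 1.00 (limma adjusted p = 0.243), and Maff, a small MAF partner, at -0.73 (limma adjusted p = 0.502). Maff was at -0.18 without K14CREER 1 and at -1.29 without K14CREER 2. Nfe2l1 was at 10.51 and 9.75 in InvCREER, against 9.45 and 8.82 in K14CREER. Its difference ran from 0.62 to 1.38 with arrays left out.

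Of 18 further genes of glutathione supply and use 8 had higher and 10 lower means. limma called 1 as higher and 0 as lower, 5 had an unadjusted p under 0.05, and the median was -0.05. The called gene was Ggct, whose product splits gamma-glutamyl dipeptides as glutathione is broken down. Ggct was at 11.65 and 11.62 in InvCREER, against 9.59 and 10.09 in K14CREER. Both InvCREER arrays lay far above both K14CREER arrays, and the difference was 1.79 (SE 0.20, limma adjusted p = 0.0213). The call was lost without the mean-variance trend (limma adjusted p = 0.0570, with 0.00138 to 0.0570 over its alternatives).

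Of 17 other thioredoxin and peroxiredoxin genes 8 had higher and 9 lower means, limma called 0, and 3 had an unadjusted p under 0.05. All 9 with lower means and 4 of the 8 with higher means did not overlap between the lines. Of all tested genes 45.3% did not overlap, 24.1% with InvCREER lower. The median was -0.22, but -0.022 with the mean of a gene's probe sets. Txnip, which binds and inhibits thioredoxin, was at 11.25 and 10.999 in InvCREER, against 12.63 and 11.96 in K14CREER. It lay lower on both InvCREER arrays, by a difference of -1.17 (SE 0.23, limma adjusted p = 0.0835). That difference ran from -1.50 to -0.83 with arrays left out. Prdx4, the peroxiredoxin of the endoplasmic reticulum, was at -0.82 (limma adjusted p = 0.128).

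NADPH feeds both the glutathione and the thioredoxin reductases. Of 16 genes of NADPH supply 8 had higher and 8 lower means, limma called 0, and 5 had an unadjusted p under 0.05, with a median of 0.01. Me1, the cytosolic malic enzyme, was at 10.19 and 9.20 in InvCREER, against 7.72 and 7.88 in K14CREER. Both InvCREER arrays were higher, InvCREER 1 most of all, and the difference was 1.90 (SE 0.35, limma adjusted p = 0.0679). With arrays left out the difference ran from 1.40 to 2.39. Nnt, the mitochondrial transhydrogenase, was at -1.22 (SE 0.33, limma adjusted p = 0.163), and at -1.60 to -0.83 with arrays left out.

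Of 23 other genes that detoxify quinones, aldehydes and epoxides 7 had higher and 16 lower means. limma called 0, 5 had an unadjusted p under 0.05, and the median was -0.05. Ugdh, which makes UDP-glucuronic acid for conjugation, was at -0.84 (limma adjusted p = 0.155), and Ephx1, the microsomal epoxide hydrolase, at -0.73 (limma adjusted p = 0.347). Both lay lower on both InvCREER arrays. In all, 7 of the 23 did so, while 4 lay higher on both, by up to 0.72. Ephx1 was at -0.33 without K14CREER 1 and at -1.13 without K14CREER 2.

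Of 15 genes of heme, iron and metal handling 9 had higher and 6 lower means. limma called 1 as higher and 0 as lower, 6 had an unadjusted p under 0.05, and the median was 0.05. Slc40a1, which encodes the iron exporter ferroportin, was at 7.69 and 7.88 in InvCREER, against 5.59 and 5.47 in K14CREER. The lines were far apart, with K14CREER near the filter, and the difference was 2.26 (SE 0.23, limma adjusted p = 0.0156). The call was lost without K14CREER 1 and without K14CREER 2, and the difference ran from 2.16 to 2.36 with arrays left out.

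Of 6 superoxide and hydrogen peroxide enzymes limma called 0 and 3 had an unadjusted p under 0.05, with a median of 0.14. Cat, the catalase gene, was at 11.16 and 9.98 in InvCREER, against 9.76 and 9.28 in K14CREER. The difference was 1.05 (limma adjusted p = 0.306) and ran from 0.46 to 1.63 with arrays left out. Sod1, the cytosolic superoxide dismutase gene, was at 10.85 and 10.53 in InvCREER, against 11.48 and 11.42 in K14CREER. Its lines did not overlap, and the difference was -0.76 (limma adjusted p = 0.0971). With arrays left out the Sod1 difference ran from -0.92 to -0.60.

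Of 6 efflux transporters limma called 0 and 2 had an unadjusted p under 0.05, with a median of -0.17. Abcb1b, a multidrug transporter, was at -1.07 (limma adjusted p = 0.131) and Abcc3, an exporter of conjugates, at -0.61 (limma adjusted p = 0.222). Of 19 glutathione transferases, which attach glutathione to electrophiles, 13 had higher and 6 lower means. limma called 1 as higher and 0 as lower, 6 had an unadjusted p under 0.05, and the median was 0.25. The called gene was Gsta2, at 3.48 (SE 0.31, limma adjusted p = 0.0113).

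A last list held 5 genes linked to NRF2 in mouse epidermis and its glands, and its median was 2.64. limma called 0 of the 5, and 4 had an unadjusted p under 0.05. Elovl3, an elongase of very long fatty acids expressed in sebaceous glands, was at 10.47 and 8.48 in InvCREER, against 6.49 and 5.74 in K14CREER. It was higher on both InvCREER arrays, by 3.36 (SE 0.64, limma adjusted p = 0.0750), and by 2.37 to 4.36 with arrays left out. Sprr2h, a small proline-rich envelope protein, was at 8.93 and 10.24 in InvCREER, against 6.93 and 6.03 in K14CREER. Its difference of 3.11 (SE 0.49, limma adjusted p = 0.0533) came from a probe set that may read close relatives. That difference ran from 2.45 to 3.76 with arrays left out.

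The rest of that list was named after its values were seen. Sprr2d, of the same family as Sprr2h, was at 2.64 (limma adjusted p = 0.0840), and at 1.97 to 3.31 with arrays left out. Epgn, a ligand of the EGF receptor, was at 6.20 and 6.37 in InvCREER, against 9.44 and 7.40 in K14CREER. It lay lower on both InvCREER arrays, at -2.14 (limma adjusted p = 0.182), and at -3.16 to -1.12 with arrays left out. Slpi, a protease inhibitor, was at 7.25 and 7.07 in InvCREER, against 8.97 and 6.63 in K14CREER. It overlapped between the lines, and its difference of -0.64 became 0.53 without K14CREER 1. The list therefore held members in both directions.

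**Figure D3:**
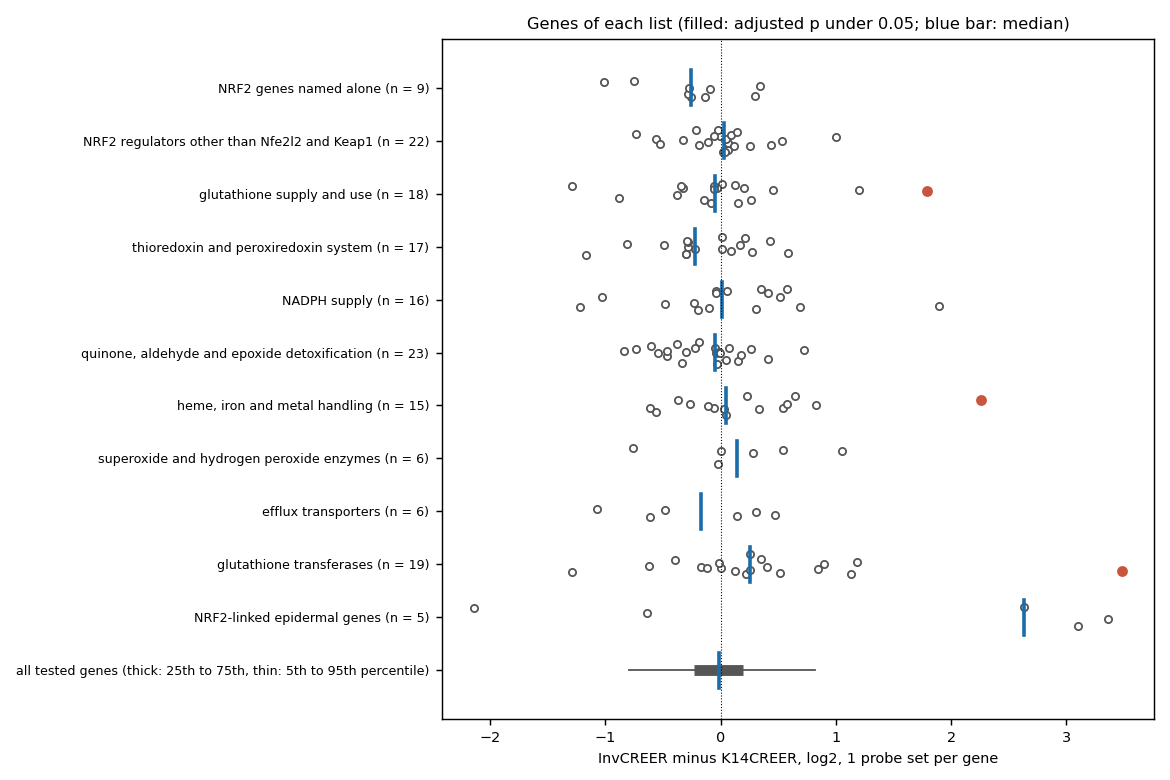
Difference between the lines in log2 units (horizontal axis, InvCREER minus K14CREER) for each gene of the NRF2 genes and of 10 pathway lists, with filled points for adjusted p under 0.05 and blue bars for medians. The filled points are Ggct, Slc40a1 and Gsta2, the median of the NRF2 genes is -0.26, and the bottom row gives the spread of all tested genes.

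Markers of cell state and of other cells differed between the lines beside these values. The 11 basal markers, among them Krt14 and Itga6, had a mean level of 11.17 and 11.01 in InvCREER, against 12.04 and 11.95 in K14CREER. On the probe set of highest mean of each gene all 11 were lower without overlap, and limma called 2. Of 4 tested probe sets each, 2 of Dst and 3 of Trp63 had lower means. Krt14, a keratin of the basal layer, was at 13.82 and 13.85 in InvCREER, against 14.14 and 14.17 in K14CREER, near the top of the scale on every array. The 10 tested spinous markers had a mean of 11.60 and 11.73 in InvCREER, against 9.92 and 9.91 in K14CREER, all higher without overlap. Both marker lists split the arrays by line. Any probe set lower in InvCREER without overlap therefore goes with lower basal and higher spinous markers. That held for 22.1% of all tested probe sets, among them those of Gsr, Nqo1 and Keap1. A further 20.0% were higher without overlap, among them Hmox1 and 4 of the 5 probe sets shared by Prdx1 and Gm21399. A link of these genes to cell state was not tested. Ivl, the gene whose promoter drives Cre in InvCREER, lay under the filter on both of its probe sets.

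The 13 sebaceous gland markers with a probe set of their own, taken with no filter on dim probe sets, had a mean level of 9.92 on InvCREER 1 and 8.41 on InvCREER 2, against 7.22 and 6.77 in K14CREER. Means were higher in InvCREER for all 13, and 3 of the 12 that passed the filter had a K14CREER mean under it. Elovl3, Me1 and Cat were likewise highest on InvCREER 1, and Elovl3 is itself one of those markers. The 13 Langerhans and myeloid markers, with no filter, had a mean level of 6.82 and 5.77 in InvCREER, against 5.36 and 5.19 in K14CREER. Means were higher in InvCREER for 12 of the 13. Of these markers 7 passed the filter, 2 of them with a K14CREER mean under it. The 8 dermal fibroblast markers, with no filter, had a mean level of 5.54 and 5.25 in InvCREER, against 6.41 and 5.53 in K14CREER. Means were lower in InvCREER for all 8. Of the 4 that passed the filter, 3 overlapped between the lines. Of the other marker lists 4 of 7 melanocyte, 1 of 5 Merkel and 5 of 9 hair follicle genes passed the filter. limma called 1 of these, the hair follicle gene Lgr6, at -1.79 (limma adjusted p = 0.0292). Of the 5 hair follicle genes 3 had higher and 2 lower means. The 5 Merkel markers, with no filter, had a mean level of 4.23 and 4.42 in InvCREER, against 5.47 and 4.14 in K14CREER. Means were higher in InvCREER for 2 of them and lower for 3. The log2 ratio of the 3′ to the 5′ probe set of Actb, a sign of RNA quality, was 1.24 and 0.77 in InvCREER, against 0.94 and 0.68 in K14CREER. That of Gapdh was 0.74 and 0.052 in InvCREER, against 0.33 and 0.074 in K14CREER. InvCREER 1, the array with the highest ratio of both, was also the lowest for Gsr and Nqo1. K14CREER 1, the next in both ratios, lay above InvCREER 2 for Gsr and Nqo1. The part of cell makeup and of RNA quality in these differences was not tested.

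**Figure D4:**
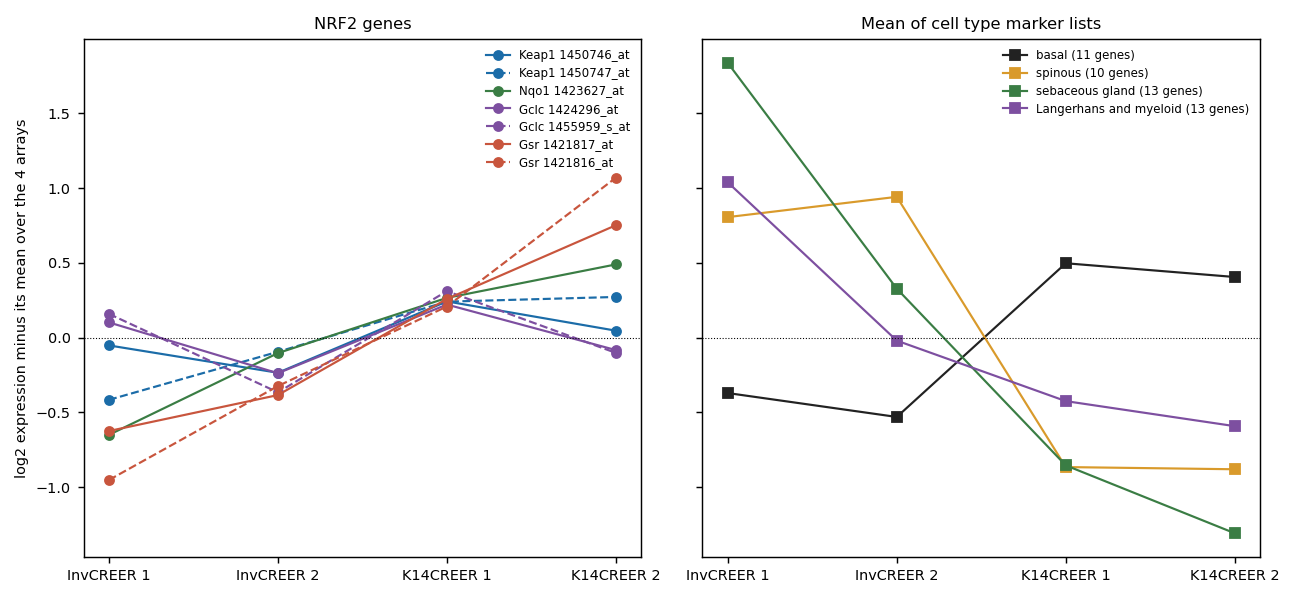
Log2 expression minus its mean over the 4 arrays (vertical axis) for Gsr, Nqo1, Keap1 and Gclc probe sets (left) and for the means of 4 marker lists (right, every named marker, no filter), by array. Gsr and Nqo1 are lowest on InvCREER 1 and highest on K14CREER 2, Gclc is higher on number 1 in both lines, and the sebaceous markers are highest on InvCREER 1 (9.92 before centring) and lowest on K14CREER 2 (6.77).

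The genes whose profile over the 4 arrays was nearest to that of Gsr were Hivep3, Spag5 and Cdt1, at a root mean square distance of 0.035, 0.043 and 0.044 in log2 units after centring. Their differences were -0.97, -1.04 and -0.95. Those nearest to Nfe2l2 were Ethe1, Ubxn7 and Crem, at 0.017, 0.020 and 0.022. With 4 arrays a likeness of this kind is a description of these libraries.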

How the data were processed

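Basal cells were profiled on 4 Affymetrix mouse arrays, 2 InvCREER and 2 K14CREER. For each array the authors labelled 100 ng of RNA with a 3′ kit, per the labels' protocols. Per the submitters' processing notes, RMA was run in Affymetrix Expression Console 1.1. The values they deposited are log2 expression, with array medians of 5.40 to 5.44. Because RMA equalises the arrays' distributions, cells with more or less RNA in total cannot be recognised. The number of arrays limits the precision.

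Of 45101 probe sets 64 controls were set aside, and 22519 with a mean of at least the median (5.42) were tested. Of the 45037 others, 34945 had 1 gene symbol, 932 several and 9160 none. Symbols came from the platform annotation, updated by Entrez number through RefSeq (GRCm38.p6). The lines were compared by limma 3.58.1 (R 4.3.3; lmFit, eBayes with a mean-variance trend, no block), 2-sided, adjusted by Benjamini-Hochberg over all tested probe sets, and called at an adjusted p under 0.05. With 2 arrays a line, exact permutation gives no 2-sided p below 0.333. Tested on simulated data with independent noise, the fit recovered the sizes of the changes put in. More of its calls there were false than an adjusted p under 0.05 allows. Whether the fit to these arrays does the same was not tested, so calls near that threshold should be read with caution. Marker levels were taken over every named marker with no filter, a choice made after seeing the data. Members and lists were chosen with earlier results of these data known. The text names every member, and of each list the called genes or, with none, the 2 with the largest difference and no overlap. It also names the 3 genes with profiles nearest to Gsr and Nfe2l2. Alternatives changed the filter, the threshold, the scaling, the variance model, the array weights, the unit of testing and the kind of probe set, added a replicate block, or left out an array. Figures were drawn with matplotlib 3.10.9. Same-numbered arrays deviated together (r = 0.38 over tested probe sets), but 2 pairs do not settle whether the numbers pair the arrays.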

Additional observations from a re-analysis of the deposited data

How the results depend on the processing

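The absence of a called member held under all planned settings except 2. With the replicate block 2 member probe sets were called, both of Gsr (-1.01, limma adjusted p = 0.0273, and -1.28, limma adjusted p = 0.0183), in a fit that called 1390 of 22519 probe sets. That fit also called Nfe2l1, Txnip, Prdx4, Me1, Ugdh, Cat, Sod1, Abcb1b, Elovl3, Sprr2h and Sprr2d of the genes named from the lists. The array numbers are not shown to pair the samples. With arrays left out, 0 to 1 member probe sets and 82 to 981 of all probe sets were called. Over the whole array 394 were called at the stricter filter, 122 without the variance trend, 692 at an adjusted p under 0.10, and, with genes as units, 551 (1 probe set per gene) and 450 (mean of the probe sets), against 216. A line left with 1 array borrows its spread from the other line.

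Differences that changed sign were of uncalled probe sets. With arrays left out they ran from -1.15 to 0.99 for Nfe2l2 1457117_at, -0.31 to 0.033 and -0.47 to 0.054 for Gclc, -0.34 to 0.28 for Gclm 1439050_at, -0.35 to 0.40, -0.13 to 0.013 and -0.069 to 0.65 for Srxn1, and -1.81 to 0.53 for Slpi. Within these ranges, Gclc was at 0.015 without K14CREER 1, Gclm at 0.030 without InvCREER 1 and Srxn1 1451680_at at -0.10 without K14CREER 1. Srxn1 1451680_at was at -0.0092 after quantile normalization. The thioredoxin list had a median of -0.11 without the filter, -0.28 at the stricter filter and -0.022 with the mean of probe sets, and -0.19 to -0.10 with arrays left out. Without probe sets ending in _s_at, _x_at or _a_at the detoxification list was at -0.19 and the epidermal list at 1.00. With arrays left out the heme list ran from -0.025 to 0.23 and the glutathione transferases from 0.083 to 0.33. The causes were not tested.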
